A study of Arabidopsis thaliana with 8 samples.

Results

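The 34 listed expansin genes of Arabidopsis thaliana were followed in dark-grown seedlings of 2 double mutants of the pyruvate dehydrogenase complex, with and without ethylene. They were 25 alpha-expansins, 5 beta-expansins, 3 expansin-like A genes and 1 expansin-like B gene, taken by locus from a count table of 36799 genes. Of the 34, 25 reached 10 counts summed over the 8 libraries. The low-count filter of the test left 24 of these, which were 18 alpha-expansins, the beta-expansins EXPB1 and EXPB3, all 3 expansin-like A genes and EXLB1. The lines were e2-2 e3-2-2 #67 (e2e3) and e1-2-2 e2-2 #17 (e1e2), so both carried e2-2 and each is a single numbered line. Seedlings spent 3 days in the dark in hydrocarbon-free air and were then given 10 ppm ethylene or more hydrocarbon-free air. The 4 groups were e2e3 in ethylene, e2e3 in air, e1e2 in ethylene and e1e2 in air, with 2 libraries each. The hours of ethylene and the loci of the alleles are not given in the labels. Ethylene is a gaseous hormone that shortens and thickens the dark-grown seedling, and the series asks how the pyruvate dehydrogenase complex bears on the transcription it sets off.

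Expansins are secreted wall proteins that let the plant cell wall yield, so that a cell can enlarge under its own turgor, without cutting the wall polymers. Their action is favoured by an acid wall, which plasma membrane proton pumps maintain, and phosphatases of the PP2C.D clade hold those pumps in check. Alpha-expansins carry the classical acid-growth activity, beta-expansins are best known from grass pollen, and no wall-loosening activity is established for the expansin-like classes. Single members are tied to single organs or cell types, such as EXPA7 and EXPA18 to root hairs.

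Library totals lay between 11522823 and 18601837 counts, where a count is a read pair assigned to a gene. Replicates differed by more than counting noise, with a mean chi-square per gene of 1.42 to 1.98. No label tells if the 2 libraries of a group came from separate plants, so p-values measure only the spread between these samples, which may be technical. E1 ALPHA, a gene for an E1 subunit of the complex, lay at 213.8 to 230.6 CPM (counts relative to the scaled library total) in the 4 e2e3 libraries and at 19.2 to 23.1 CPM in the 4 e1e2 libraries. mtLPD2, a gene for the E3 subunit, lay at 27.4 to 40.4 CPM in e2e3 and at 130.7 to 150.3 CPM in e1e2. The dark-grown shoot markers PORA and PORB were at 1284 CPM or above in every library, and the root marker PYK10 was at 5922 CPM or above. In whole-seedling RNA, fewer cells of a type and less RNA per cell cannot be told apart.

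Upstream sequences are shown for 4 members around which the ethylene results turn: EXPA12, with the largest rise, EXPA5, among the deepest falls, and the root hair pair EXPA7 and EXPA18, which rose while most of the family fell. Each is the 250 bases before the annotated gene start in the TAIR10.1 RefSeq genome, written 5′ to 3′ along the gene. They lie at chr3:5190304-5190553 (plus strand), chr3:11013452-11013701 (minus strand), chr1:4276255-4276504 (plus strand) and chr1:23331313-23331562 (plus strand). Capitals mark matches to the motifs described after them.
EXPA12: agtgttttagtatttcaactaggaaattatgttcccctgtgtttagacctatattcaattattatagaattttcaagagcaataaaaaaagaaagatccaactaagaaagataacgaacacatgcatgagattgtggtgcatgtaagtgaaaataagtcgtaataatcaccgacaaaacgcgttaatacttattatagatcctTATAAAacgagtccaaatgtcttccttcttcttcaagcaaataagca
EXPA5: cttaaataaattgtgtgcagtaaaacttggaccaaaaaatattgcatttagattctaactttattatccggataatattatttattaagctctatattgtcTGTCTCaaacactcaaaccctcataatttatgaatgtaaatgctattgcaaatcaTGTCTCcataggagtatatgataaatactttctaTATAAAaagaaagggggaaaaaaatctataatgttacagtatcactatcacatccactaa
EXPA7: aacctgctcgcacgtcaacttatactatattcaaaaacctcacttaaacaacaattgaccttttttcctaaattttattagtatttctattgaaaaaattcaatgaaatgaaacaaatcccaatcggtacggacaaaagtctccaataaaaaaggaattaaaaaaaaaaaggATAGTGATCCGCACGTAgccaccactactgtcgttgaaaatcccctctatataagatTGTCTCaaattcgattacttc
EXPA18: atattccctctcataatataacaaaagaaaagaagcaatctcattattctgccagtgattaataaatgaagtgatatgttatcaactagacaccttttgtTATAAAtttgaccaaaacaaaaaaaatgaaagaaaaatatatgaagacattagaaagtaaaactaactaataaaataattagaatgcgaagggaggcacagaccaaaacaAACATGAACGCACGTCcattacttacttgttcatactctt

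Both root hair genes carried a match to the root hair element, the consensus element of root hair gene promoters, at −78 to −62 in EXPA7 and at −40 to −25 in EXPA18 (bases before the gene start). It was found in 2 of the 34 expansin upstream regions and in 0.754% of 27438 protein-coding genes. That element was first described from root hair genes that included expansins, so this match is not independent. The auxin response element TGTCTC stood in EXPA5, at −149 and −94, in EXPA7 at −21, and in EXPA6 and EXPA10, 4 of 34 regions against 10.9% of all. The EIN3 site ATGTANCT, for the transcription factor at the end of the ethylene pathway, matched in EXPA1 and EXPA13, 2 of 34 against 3.63% of all. The GCC-box GCCGCC, bound by ethylene response factors, matched in 0 of 34 against 1.87%, and the G-box CACGTG in 1, EXPB2, against 6.49%. These motifs were searched on both strands, and none of the marked matches overlap. The TATA box TATAAA, searched on the gene's own strand, stood at −47 to −42 in EXPA12 and at −60 to −55 in EXPA5 and at −150 to −145 in EXPA18, and in 12 of 34 regions against 32.9% of all. A match is a description of these letters and not of binding.

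The family was dominated by 4 alpha-expansins, EXPA3, EXPA8, EXPA9 and EXPA11. Levels of different genes are given per length, as TPM (the count over the gene's length, relative to the same sum over all genes, computed from the counts and lengths of the count table). Together these 4 held 68.9% of the family's TPM in e2e3 in ethylene and 65.8% in e2e3 in air, and 66.4% in e1e2 in ethylene and 63.5% in e1e2 in air. In e2e3 in ethylene the order was EXPA3 (354.2 TPM), EXPA11 (344.2), EXPA9 (259.3) and EXPA8 (149 TPM), while in e2e3 in air EXPA8 led at 504.5 TPM, ahead of EXPA3 (457.9), EXPA11 (365.6) and EXPA9 (244 TPM). In e1e2 in ethylene the levels were 316.3 TPM for EXPA3, 296.5 for EXPA11, 243.4 for EXPA9 and 94.0 for EXPA8, and in e1e2 in air 414.2 TPM for EXPA3, 356.8 for EXPA8, 331.2 for EXPA11 and 232.4 for EXPA9. These are means of 2 libraries with SDs of 0.206 to 10.02 TPM. EXPA8 thus ranked 4 in ethylene in both lines, against 1 in e2e3 in air and 2 in e1e2 in air. EXPA12 ranked 11 in e2e3 in ethylene and 24 in e2e3 in air, and 7 in e1e2 in ethylene and 24 in e1e2 in air. EXPA5 ranked 20 in e2e3 in ethylene and 11 in e2e3 in air, and 23 in e1e2 in ethylene and 11 in e1e2 in air.

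**Figure D1:**
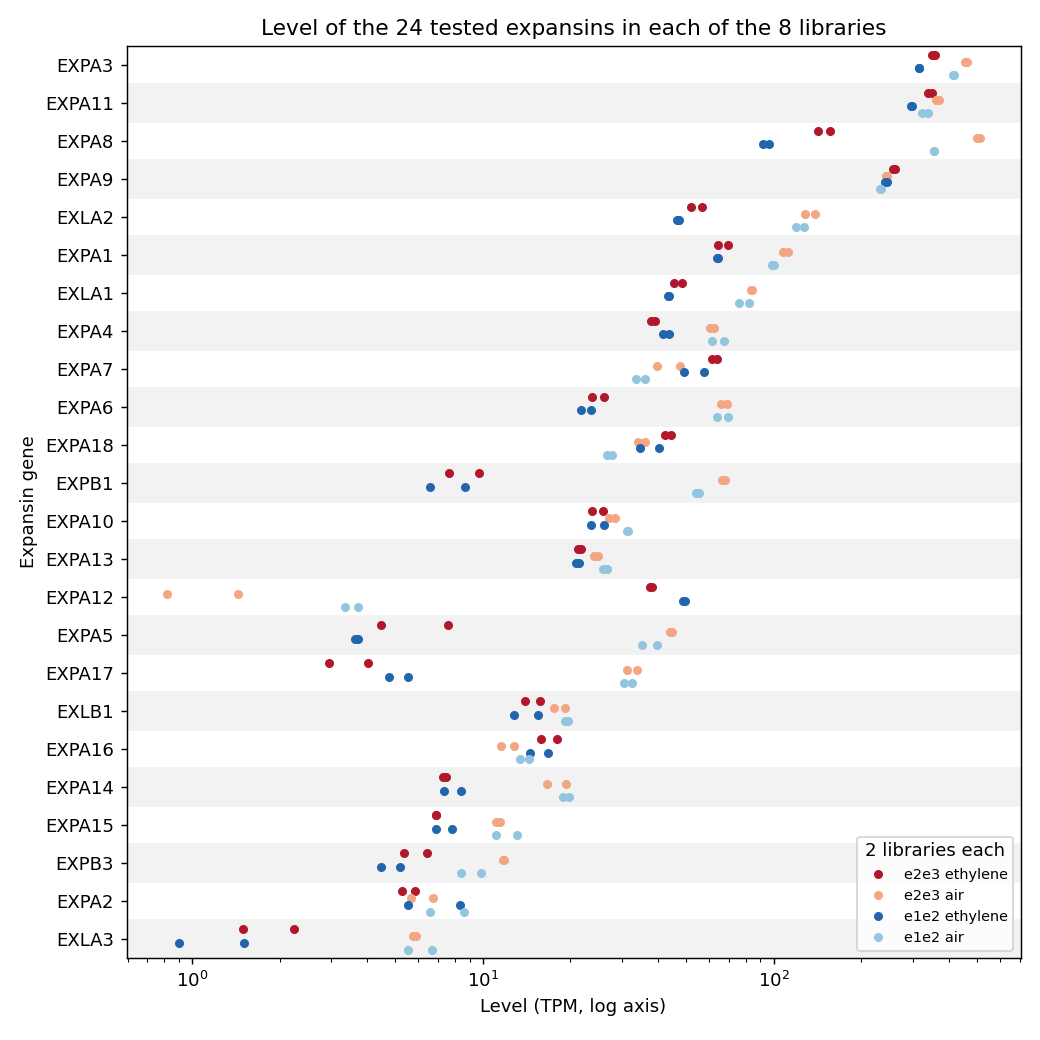
Level of each of the 24 tested expansins in each of the 8 libraries, in TPM on a log axis; each point is 1 library and colours give the groups. EXPA12 is the member whose ethylene points lie far to the right of its air points, and EXPA5, EXPB1 and EXPA17 have theirs far to the left.

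Summed over the 34 genes, the family stood at 1582 and 1630 TPM in e2e3 in ethylene against 2386 and 2391 TPM in e2e3 in air. In e1e2 it stood at 1442 and 1419 TPM in ethylene against 2087 and 2117 TPM in air. The ethylene and air libraries did not overlap in either line, and the ratio of means was 0.672 ± 0.014 in e2e3 and 0.681 ± 0.010 in e1e2 (SD propagated from 2 libraries a group). By class, beta-expansins summed to 13.0 and 16.1 TPM in e2e3 in ethylene against 79.8 and 78.3 TPM in e2e3 in air, and to 13.1 and 11.75 TPM in e1e2 in ethylene against 63.6 and 63.8 TPM in e1e2 in air. Expansin-like A genes summed to 99.55 and 106.3 TPM in e2e3 in ethylene against 228.8 and 217.6 TPM in e2e3 in air, and to 91.6 and 91.4 TPM in e1e2 in ethylene against 201.9 and 215 TPM in e1e2 in air. Alpha-expansins therefore made up a larger share in ethylene, 91.6% to 91.9% over the 4 ethylene libraries and 85.9% to 86.9% over the 4 air libraries. Family sums carry no test. The summed level of 5 root endodermis and cortex markers, of which PYK10 made up 93.5% to 94.9% in every library, was 7180 and 7169 CPM in e2e3 in ethylene against 11500 and 11620 CPM in e2e3 in air, and 6362 and 6324 CPM in e1e2 in ethylene against 10030 and 9692 CPM in e1e2 in air. PYK10 and CASP5 fell in both lines and CASP1 in e2e3 (log2 −0.14 ± 0.04, and −0.04 ± 0.04 in e1e2), while MYB36 stood at 0.07 in each line. All 3 dark-grown shoot markers, PORA, PORB and HLS1, rose in both lines. By the same rule, described below, 20.3% of all tested genes were higher and 23.6% lower in e2e3, and 18.3% and 20.9% in e1e2. The shoot markers summed to 4360 and 4511 CPM in e2e3 in ethylene against 3247 and 3327 CPM in e2e3 in air, and to 4359 and 4357 CPM in e1e2 in ethylene against 3700 and 3514 CPM in e1e2 in air. The part of these markers in the expansin result was not tested.

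**Figure D2:**
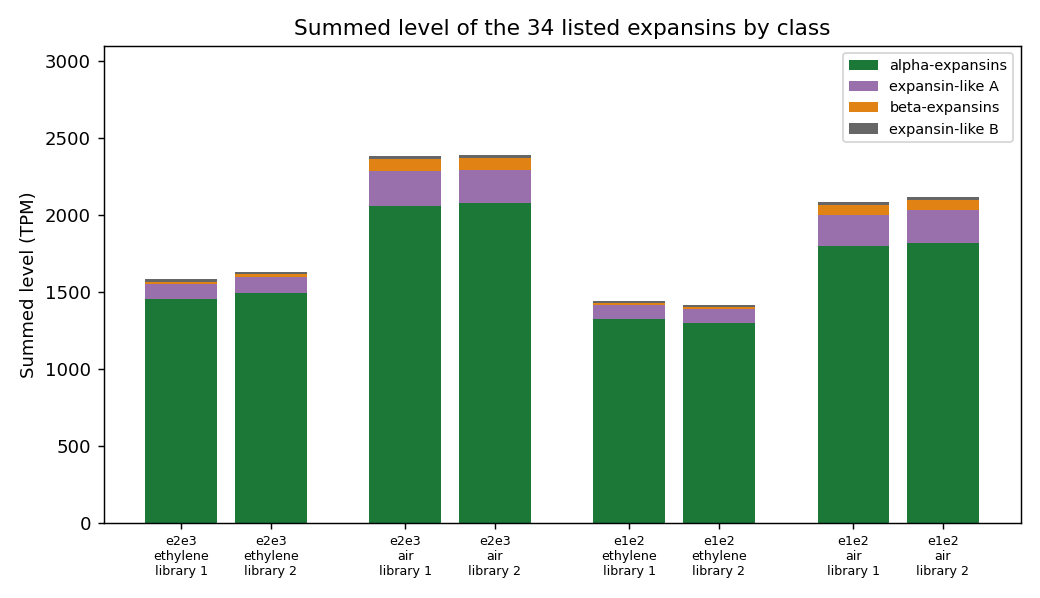
Summed TPM of the 34 listed expansins in each library, stacked by class; bars start at 0 and are grouped by line and treatment. The 4 ethylene libraries sum to 1419 to 1630 TPM, all below the 4 air libraries at 2087 to 2391 TPM.

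A further 10 listed genes were at or near the detection limit and were not tested. Of them, 7 had no count in any library: EXPA22, EXPA23, EXPA25, EXPA26, EXPB2, EXPB4 and EXPB5. No count in 113973351 allows a level of up to 0.0263 CPM over the 8 libraries (3 counts, counting error only, for read pairs that map to 1 place). EXPA21 and EXPA24 had 3 counts each and EXPA20 had 15. EXPA21 to EXPA26 are 6 neighbouring genes on chromosome 5, between 15726243 and 15740605 (TAIR10), a span of 14.4 kb that drew 6 counts in all. For EXPA20, 86.3% of the exonic bases lie under another annotated gene, and for EXPA21 40.3%. Read pairs over more than 1 gene were not counted, so the low values of these 2 genes are uncertain. Among the tested members the part under another gene was largest for EXPA2, at 5.93%. Read pairs that mapped to more than 1 place were not counted either. Pairs shared by near-identical copies would be lost, which was not tested. The low counts of the neighbouring EXPA21 to EXPA26 therefore need not bound their levels.

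Most of the expressed family fell in ethylene in both lines, and few members rose. A gene was called when its Benjamini-Hochberg adjusted p over all 20193 tested genes was under 0.05 in edgeR's quasi-likelihood test. In e2e3, 4 of 24 members were higher in ethylene and 18 lower, where 44% of all tested genes were called (20.3% higher and 23.6% lower). In e1e2, 3 were higher and 18 lower, where 39.2% of all tested genes were called (18.3% higher and 20.9% lower). With a change of at least 2-fold as well, 1 member was higher and 9 lower in e2e3 (1.99% and 4.78% of all genes), and 1 was higher and 8 lower in e1e2 (2.09% and 4.45% of all genes). The median log2 change over the 24 members was −0.77 in e2e3 and −0.69 in e1e2, against 0.007 and 0.01 over all tested genes. Members that passed in both lines numbered 3 higher and 18 lower, with 0 opposite, where 12.8% of all tested genes were called higher in both lines and 17.3% lower in both. The lines' responses used different libraries. By class, 12 of 18 alpha-expansins, both tested beta-expansins, all 3 expansin-like A genes and EXLB1 fell in each line.

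Some of the calls on small changes rested on the choice of method or of libraries, while others held, such as EXPA3 and EXPA7 in both lines. In e2e3, 16 of 22 calls held in all alternatives that gave a value. The others were EXPA11, which lost its call with library size as the only scaling, and EXPA10, EXPA13, EXPA16, EXPA18 and EXLB1, which lost it by DESeq2 and without 1 or more single libraries, and for EXPA10, EXPA13 and EXLB1 also with library size alone. In e1e2, 19 of 21 held, while EXPA18 (log2 change 0.27) and EXLB1 (−0.40) were lost without ethylene library 1. In the authors' deposited DESeq2 result for e1e2, EXPA13, EXPA18 and EXLB1 did not reach an adjusted p under 0.05. Scaling by library size alone moved the median of all genes by 0.082 in e2e3 and 0.067 in e1e2, and the calls over all genes to 5874 higher and 3773 lower in e2e3 and to 5220 higher and 3492 lower in e1e2, against 4109 and 4767 in e2e3 and 3694 and 4217 in e1e2 with TMM scaling.

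**Figure D3:**
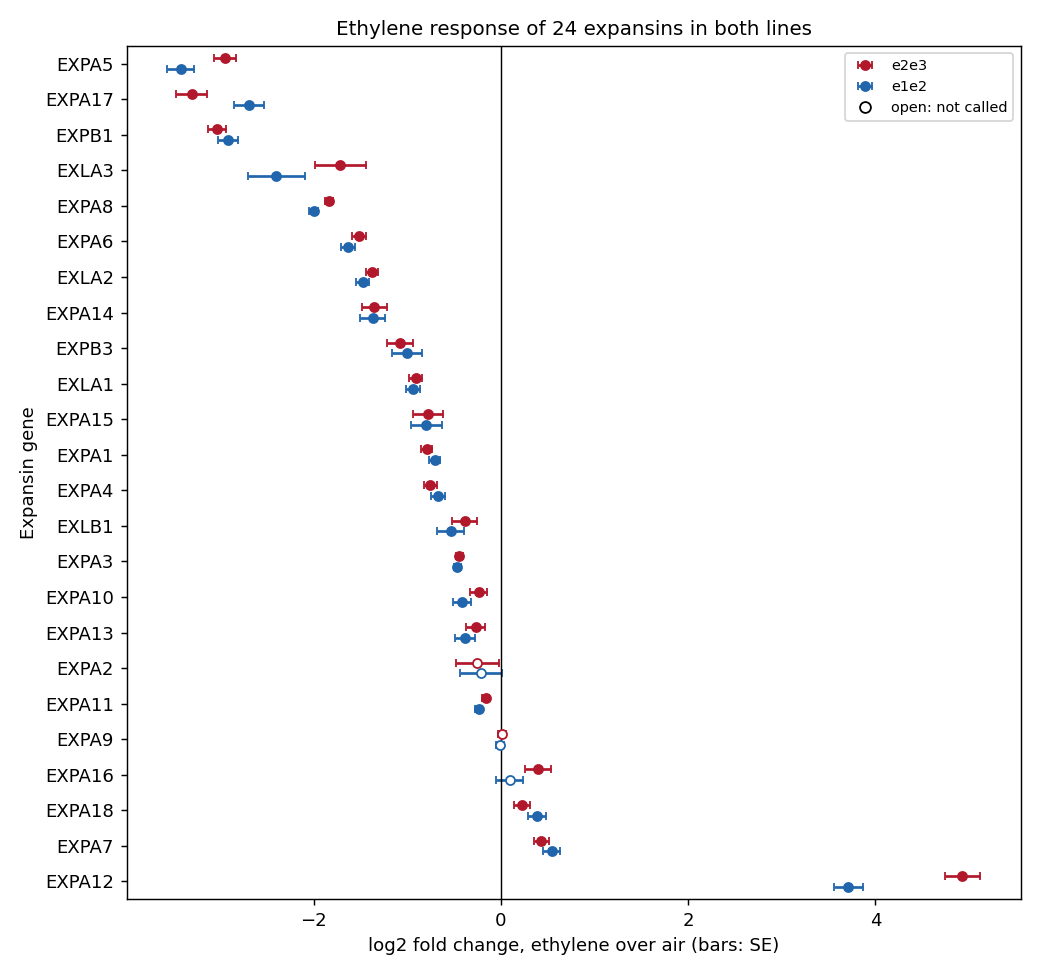
log2 fold change of each tested expansin, ethylene over air, in e2e3 and in e1e2; bars are 1 SE, and open points did not pass the test. EXPA12 stands alone at the right, at 4.93 in e2e3 and 3.71 in e1e2, and EXPA5, EXPA17 and EXPB1 at the left lie between −3.42 and −2.69.

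EXPA12 (AT3G15370, chromosome 3, 5190554 to 5192197, plus strand), an alpha-expansin, moved furthest of the family. It read 24.9 and 25.6 CPM in e2e3 in ethylene against 0.575 and 1.01 CPM in e2e3 in air, where the air libraries held 8 and 18 counts. In e1e2 it read 31.5 and 31.95 CPM in ethylene against 2.30 and 2.52 CPM in air. Both ethylene libraries of each line were far above all 4 air libraries. The rise was 30.5-fold in e2e3 (log2 4.93 ± 0.19, SE; edgeR, Benjamini-Hochberg adjusted p = 3.94e-68) and 13.1-fold in e1e2 (log2 3.71 ± 0.16; adjusted p = 4.73e-61). Its upstream region, printed above, held no match to the EIN3 site, the GCC-box or the auxin response element in those 250 bases.

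The root hair expansins EXPA7 and EXPA18, which act in root hair outgrowth, rose by far less. EXPA7 (AT1G12560, chromosome 1, 4276505 to 4277969) read 40.8 and 39.5 CPM in e2e3 in ethylene against 26.8 and 32.4 CPM in e2e3 in air, and 35.8 and 30.4 CPM in e1e2 in ethylene against 23.7 and 21.9 CPM in e1e2 in air. EXPA18 (AT1G62980, chromosome 1, 23331563 to 23333246) read 30.2 and 32.0 CPM in e2e3 in ethylene against 25.9 and 27.3 CPM in e2e3 in air, and 28.15 and 24.2 CPM in e1e2 in ethylene against 20.4 and 19.6 CPM in e1e2 in air. Within each line the ethylene and air libraries did not overlap, but the ranges of e1e2 in ethylene and e2e3 in air did for both genes. On the log2 scale EXPA7 rose by 0.43 ± 0.08 in e2e3 and by 0.54 ± 0.09 in e1e2 (edgeR, Benjamini-Hochberg adjusted p = 8.96e-07 and 6.27e-08). EXPA18 rose by 0.22 ± 0.08 in e2e3 and by 0.39 ± 0.10 in e1e2 (edgeR, Benjamini-Hochberg adjusted p = 0.0234 and 0.000381). In e2e3 the EXPA18 call was lost by DESeq2, without air library 1 (log2 0.20) and without ethylene library 2 (0.18).

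The root hair markers did not all take 1 direction. Of the 6 markers COBL9, RSL4, RHD6, RSL2, LRX1 and PRP3, 1 was higher and 1 lower in ethylene in e2e3, and 3 were higher and 1 lower in e1e2, beside the shares of all genes given above (20.3% higher and 23.6% lower in e2e3, 18.3% and 20.9% in e1e2). Their sum was 229.5 and 220.8 CPM in e2e3 in ethylene against 219 and 240.1 CPM in e2e3 in air, and 171.3 and 172.7 CPM in e1e2 in ethylene against 151.7 and 145.5 CPM in e1e2 in air. None of the 6 was at 0 in any library. RSL4, a regulator of root hair growth, rose in both lines, by 0.55 ± 0.16 in e2e3 and 1.10 ± 0.19 in e1e2, and RSL2, another such regulator, fell in both, by 0.84 ± 0.19 and 0.79 ± 0.23. The part of these markers in the EXPA7 and EXPA18 results was not tested.

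EXPA16 was called higher in e2e3 only, where it read 12.85 and 11.5 CPM in ethylene against 8.69 and 9.68 CPM in air (log2 0.40 ± 0.14; edgeR, Benjamini-Hochberg adjusted p = 0.0107). In e1e2 it read 11.65 and 10.1 CPM in ethylene against 10.6 and 9.85 CPM in air (0.09 ± 0.14). The lines' responses differed by 0.31 ± 0.20, which did not pass the test (adjusted p = 0.518), so its response is not shown to differ between the lines. The e2e3 call was lost by DESeq2, without ethylene library 1 (log2 0.32) and without air library 1 (0.35).

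EXPA5, a brassinosteroid-responsive alpha-expansin that promotes growth, fell deepest in e1e2. EXPA5 (AT3G29030, chromosome 3, 11011262 to 11013451, minus strand) read 3.63 and 6.26 CPM in e2e3 in ethylene against 38.6 and 38.0 CPM in e2e3 in air, and 2.96 and 2.89 CPM in e1e2 in ethylene against 29.5 and 33.2 CPM in e1e2 in air. The ethylene libraries of both lines were all well below the air libraries, and the 2 ethylene libraries of e2e3 stood apart from each other. The fall was 7.72-fold in e2e3 (log2 −2.95 ± 0.12; edgeR, Benjamini-Hochberg adjusted p = 2.3e-62) and 10.7-fold in e1e2 (log2 −3.42 ± 0.14; adjusted p = 4.63e-61).

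EXPB1 and EXPA17 fell about as far. EXPB1 (AT2G20750, chromosome 2, 8940833 to 8942706), the beta-expansin with the higher TPM of the 2 tested in every library, read 6.64 and 8.56 CPM in e2e3 in ethylene against 62.7 and 61.6 CPM in e2e3 in air, and 7.34 and 5.57 CPM in e1e2 in ethylene against 49.65 and 48.1 CPM in e1e2 in air. That was 8.16-fold lower in e2e3 and 7.55-fold lower in e1e2 (edgeR, Benjamini-Hochberg adjusted p = 4.5e-81 and 5.14e-71). EXPA17 (AT4G01630, chromosome 4, 700566 to 701769), an auxin-induced gene known for its part in lateral root emergence, read 2.52 and 1.88 CPM in e2e3 in ethylene against 20.8 and 22.6 CPM in e2e3 in air, and 2.90 and 3.37 CPM in e1e2 in ethylene against 21.0 and 19.6 CPM in e1e2 in air. It was 9.86-fold lower in e2e3 and 6.47-fold lower in e1e2 (edgeR, Benjamini-Hochberg adjusted p = 7.12e-50 and 2.94e-40). In each line all ethylene libraries of both genes lay far below all air libraries. Markers of lateral root primordia were low throughout. Of the 5 listed, LBD16, LBD18 and LBD29 were tested. In e2e3, LBD16 (log2 −0.37 ± 0.14) and LBD29 (−1.78 ± 0.52) fell and LBD18 (−0.27 ± 0.22) did not pass. In e1e2, LBD18 (−0.63 ± 0.22) and LBD29 (−1.33 ± 0.53) fell and LBD16 (−0.26 ± 0.15) did not pass. Of all tested genes, 23.6% were called lower in e2e3 and 20.9% in e1e2. LBD29 held only 5 to 26 counts a library. The 5 summed to 14.2 and 13.0 CPM in e2e3 in ethylene against 18.4 and 17.7 CPM in e2e3 in air, and to 14.0 and 11.95 CPM in e1e2 in ethylene against 16.6 and 17.5 CPM in e1e2 in air, with GATA23 at 0 in 1 library. Their part in the EXPA17 result was not tested.

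**Figure D4:**
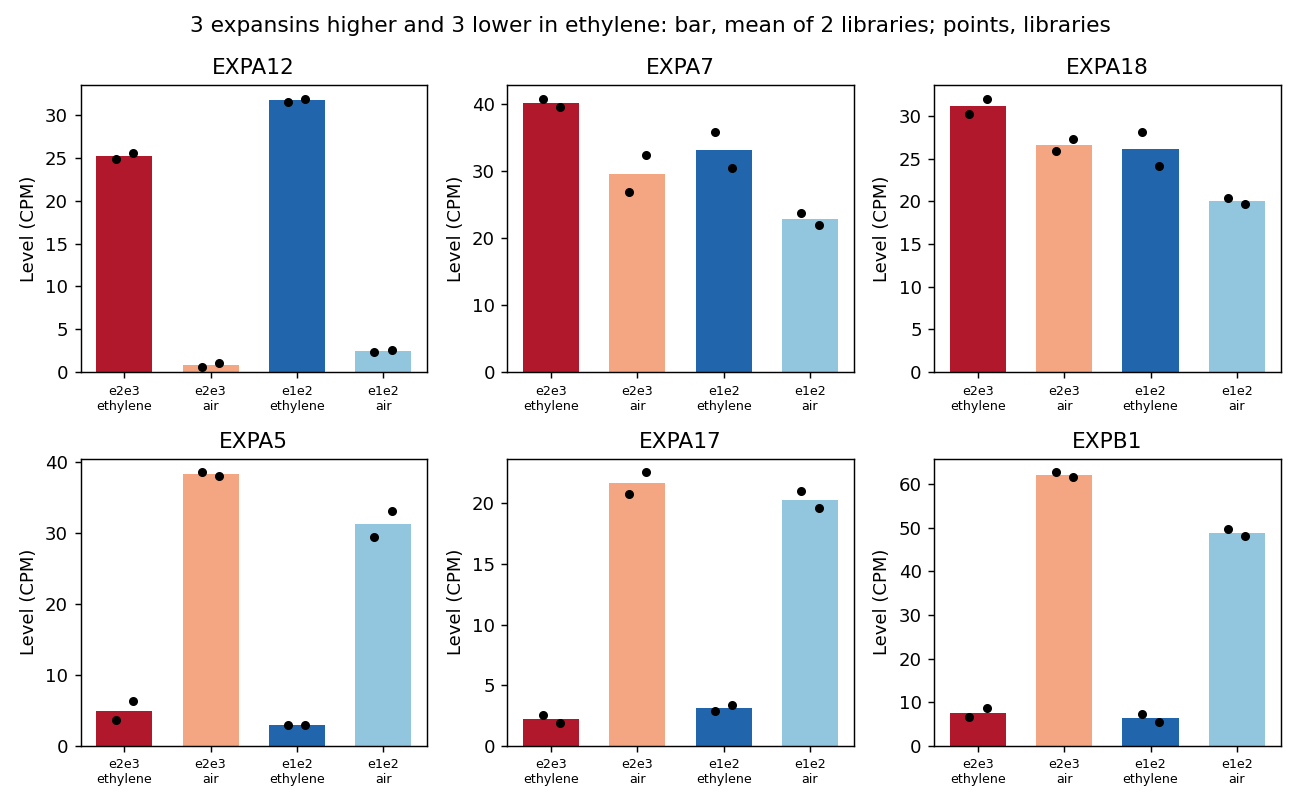
CPM of 3 expansins that were higher in ethylene (EXPA12, EXPA7 and EXPA18) and 3 that were lower (EXPA5, EXPA17 and EXPB1) in the 4 groups; bars start at 0 and give the mean of 2 libraries, shown as points. EXPA12 lies between 24.9 and 31.95 CPM in the 4 ethylene libraries and between 0.575 and 2.52 CPM in the 4 air libraries.

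EXPA8 was the abundant member that changed most. EXPA8 (AT2G40610, chromosome 2, 16948791 to 16950705) read 107.2 and 119.5 CPM in e2e3 in ethylene against 398 and 411 CPM in e2e3 in air, and 70.85 and 67.8 CPM in e1e2 in ethylene against 278.6 and 276.5 CPM in e1e2 in air. No library of one treatment came near the other, and within each treatment both e2e3 libraries were above both e1e2 libraries. The fall was 3.57-fold in e2e3 and 4.00-fold in e1e2 (log2 −1.84 ± 0.04 and −2.0 ± 0.05; edgeR, Benjamini-Hochberg adjusted p = 6.94e-110 and 6.39e-108). The other abundant members moved little: EXPA3 fell by 0.45 ± 0.04 in e2e3 and 0.47 ± 0.04 in e1e2 on the log2 scale, and EXPA11 by 0.16 ± 0.04 and 0.24 ± 0.04. EXPA9 read 200.1 and 205.2 CPM in e2e3 in ethylene against 200.1 and 201.9 CPM in e2e3 in air, and 182.4 and 186.3 CPM in e1e2 in ethylene against 185.2 and 186.2 CPM in e1e2 in air. Its log2 change was 0.01 in e2e3 (95% interval −0.07 to 0.09) and −0.01 in e1e2 (−0.09 to 0.07). With library size as the only scaling it was called higher in e2e3 (log2 0.09).

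Another group of members fell by at least 2-fold in both lines. They were EXPA6 (log2 −1.52 ± 0.07 in e2e3 and −1.64 ± 0.08 in e1e2), EXPA14, which like EXPA17 is an auxin-induced gene of lateral roots (−1.35 ± 0.13 and −1.37 ± 0.13), and the expansin-like genes EXLA2 (−1.37 ± 0.06 and −1.48 ± 0.07) and EXLA3 (−1.71 ± 0.27 and −2.40 ± 0.31). EXPA6 read 21.4 and 23.9 CPM in e2e3 in ethylene against 63.1 and 66.65 CPM in e2e3 in air, and 19.2 and 20.9 CPM in e1e2 in ethylene against 59.7 and 64.6 CPM in e1e2 in air. EXLA2, whose altered expression is known to affect growth of the dark-grown hypocotyl, read 33.3 and 36.75 CPM in e2e3 in ethylene against 94.5 and 87.7 CPM in e2e3 in air, and 29.0 and 29.5 CPM in e1e2 in ethylene against 79.0 and 83.9 CPM in e1e2 in air. Both genes separated completely by treatment. EXLA3 was scarce, at 1.75 and 1.18 CPM in e2e3 in ethylene against 4.74 and 4.90 CPM in e2e3 in air, and at 1.15 and 0.687 CPM in e1e2 in ethylene against 5.39 and 4.41 CPM in e1e2 in air. It lies 2012 bases from EXLA1 on chromosome 3, which fell by 0.91 ± 0.07 in e2e3 and 0.94 ± 0.08 in e1e2. EXPB3, the other tested beta-expansin, read 6.36 and 7.73 CPM in e2e3 in ethylene against 14.8 and 14.9 CPM in e2e3 in air, and 5.19 and 6.05 CPM in e1e2 in ethylene against 10.3 and 12.05 CPM in e1e2 in air, a change of −1.08 ± 0.14 in e2e3 and −1.0 ± 0.16 in e1e2 that lies at the 2-fold line.

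The remaining falls were smaller. EXPA1, an alpha-expansin of guard cells and of the early lateral root, read 56.8 and 62.2 CPM in e2e3 in ethylene against 100.9 and 105.2 CPM in e2e3 in air, and 55.6 and 55.0 CPM in e1e2 in ethylene against 91.2 and 89.5 CPM in e1e2 in air. It fell by 0.79 ± 0.05 on the log2 scale in e2e3 and by 0.71 ± 0.06 in e1e2. EXPA4 (−0.75 ± 0.07 and −0.67 ± 0.07) and EXPA15 (−0.78 ± 0.16 and −0.80 ± 0.16) changed to a like extent in e2e3 and e1e2, and EXPA10, known from leaf growth, changed by −0.24 ± 0.09 and −0.42 ± 0.09. In e2e3 the EXPA10 call was lost without air library 1 (log2 −0.19), air library 2 (−0.25) or ethylene library 2 (−0.18). The EXPA13 call (−0.27 ± 0.10 in e2e3, −0.38 ± 0.10 in e1e2) was lost in e2e3 without any 1 of its 4 libraries, at −0.30 to −0.22. EXLB1 (−0.39 ± 0.13 in e2e3, −0.54 ± 0.14 in e1e2) lost its e2e3 call without air library 1 or ethylene library 2 (−0.31 each).

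EXPA2, an alpha-expansin best known from seed germination, passed in neither line. It read 3.42 and 3.13 CPM in e2e3 in ethylene against 3.52 and 4.22 CPM in e2e3 in air, and 4.78 and 3.16 CPM in e1e2 in ethylene against 3.98 and 5.20 CPM in e1e2 in air, so the e1e2 groups overlapped. The 95% interval of its log2 change was −0.70 to 0.20 in e2e3 and −0.65 to 0.23 in e1e2.

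The response to ethylene was compared between the lines as the e2e3 response minus the e1e2 response. EXPA12 alone passed, where 2.8% of all tested genes were called (1.54% higher and 1.27% lower). Its response was larger in e2e3 by 1.22 ± 0.35 on the log2 scale (edgeR, Benjamini-Hochberg adjusted p = 0.0261), past 2-fold, where 0.114% of all genes were higher and 0.0446% lower by that measure. The larger response in e2e3 went with a lower level in air, 0.575 and 1.01 CPM in e2e3 against 2.30 and 2.52 CPM in e1e2, while in ethylene it read 24.9 and 25.6 CPM in e2e3 and 31.5 and 31.95 CPM in e1e2. This difference shares its air libraries with the comparison of the lines in air, so the 2 results are not independent. The call was lost without e2e3 air library 1 (log2 0.94, adjusted p = 0.249), e1e2 air library 2 (1.15, adjusted p = 0.137), e2e3 ethylene library 2 (1.20, adjusted p = 0.066), e1e2 ethylene library 1 (1.21, adjusted p = 0.0572) or e1e2 ethylene library 2 (1.23, adjusted p = 0.0533), all by edgeR with Benjamini-Hochberg adjustment. It also missed the threshold in limma-voom (1.25, adjusted p = 0.079), and DESeq2 gave it no adjusted p.

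The other 23 members did not pass for the difference, which does not show that their responses were alike. No member had a response called lower in e2e3 by edgeR, DESeq2 or limma-voom, and 1 was lower at an unadjusted edgeR p under 0.05. That member was EXPA17, at −0.61 (95% interval −1.13 to −0.08; edgeR, Benjamini-Hochberg adjusted p = 0.255). EXPA5 stood at 0.47 (0.03 to 0.91; adjusted p = 0.308) and EXPA8 at 0.17 (0.04 to 0.29; adjusted p = 0.152). Both of these 2 passed when e2e3 ethylene library 1 was left out, at 0.82 and 0.24. EXPA3 had the narrowest interval of the difference, −0.08 to 0.12, and EXLA3 the widest, −0.18 to 1.55.

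In air, the expansins called between the lines were mostly higher in e2e3. Of the 24 members, 11 were higher in e2e3 than in e1e2 and 1 was lower, where 14.8% of all tested genes were called (9% higher and 5.83% lower). The median log2 difference was 0.11 over the members and 0.011 over all tested genes. EXPA8 led, with the values given above (log2 0.54 ± 0.04; edgeR, Benjamini-Hochberg adjusted p = 1.46e-30), followed by EXPA18 (0.41 ± 0.10), EXPB3 (0.40 ± 0.13), EXPA7 (0.39 ± 0.09), EXPB1 (0.35 ± 0.07) and EXPA5 (0.29 ± 0.09). EXPA1, EXPA3, EXPA11, EXLA2 and EXPA9 were higher by 0.11 to 0.19. EXPA12 was lower, 2.93-fold, the one member past 2-fold, where 0.292% of all genes were higher and 0.317% lower by that measure (log2 −1.55 ± 0.33; adjusted p = 0.000104, edgeR, Benjamini-Hochberg). In every member called higher both e2e3 air libraries were above both e1e2 air libraries, and in EXPA12 both were below. Such separation was not limited to called members: EXLA1 lay above, and EXPA10, EXPA13 and EXPA16 lay below. Its share over all tested genes was not computed, so it adds no support to the calls.

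Only 6 of these 12 calls held in all alternatives that gave a value, namely EXPA3, EXPA8, EXPA11, EXPA18 and EXPB1 among the higher ones and EXPA12. EXPA7 was lost without e2e3 air library 2 (log2 0.22), and EXPA1 without that library (0.14) or e1e2 air library 2 (0.18). EXPA5 and EXPB3 were each lost without e1e2 air library 1 (0.19 and 0.29), e2e3 air library 1 (0.26 and 0.40) or e2e3 air library 2 (0.28 and 0.38). With each of the 8 libraries left out in turn, EXPA9 was lost 6 times and EXLA2 5 times, at 0.09 to 0.12 for EXPA9 and 0.09 to 0.20 for EXLA2. Scaling by library size alone turned the calls over all genes to 1185 higher and 1756 lower, against 1818 and 1177 with TMM, and left 7 members higher and 1 lower. It lost EXPA5, EXPA9, EXPB3 and EXLA2, and DESeq2 lost EXPA1, EXPA5, EXPA9 and EXLA2. EXPA9 and EXLA2 were also lost with no filter, with the replicate block and with only the 4 libraries compared.

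Root and shoot markers also differed between the lines in air, where 9% of all tested genes were called higher in e2e3 and 5.83% lower. Of the 6 root hair markers, 5 were higher, with PRP3 at 0.67 ± 0.05 and LRX1 at 0.66 ± 0.07 on the log2 scale, and the sum was 219 and 240.1 CPM in e2e3 in air against 151.7 and 145.5 CPM in e1e2 in air. Of the 5 endodermis and cortex markers, 4 were higher, with CASP1 at 0.36 ± 0.04. The lateral root markers LBD16 (0.34 ± 0.14), LBD18 (−0.48 ± 0.21) and LBD29 (0.15 ± 0.43) did not pass. Of the 3 dark-grown shoot markers, PORA was lower by 0.21 ± 0.03, and PORB (−0.08 ± 0.03) and HLS1 (−0.11 ± 0.07) did not pass. The shoot markers summed to 3247 and 3327 CPM in e2e3 in air against 3700 and 3514 CPM in e1e2 in air. None of the root hair, endodermis, cortex or shoot markers was at 0. Their part in the differences of EXPA7, EXPA18 and the other expansins was not tested.

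The lines were compared in ethylene in the same way. Of the 24, 7 were higher in e2e3 and 1 was lower, where 6.56% of all tested genes were called (4.24% higher and 2.32% lower). Whether a member's line difference itself differed between ethylene and air is the difference of responses, which EXPA12 alone passed. EXPA8 (log2 0.71 ± 0.05), EXPA11 (0.26 ± 0.04) and EXPA3 (0.21 ± 0.04) were higher, and these 3 calls held in all alternatives that gave a value (edgeR, Benjamini-Hochberg adjusted p = 7.55e-30, 2.59e-08 and 3.52e-06). EXPA5 was higher by 0.76 ± 0.21, which was 0.31 without e2e3 ethylene library 2 and missed the threshold there, without either e1e2 ethylene library (0.78 and 0.74) and in limma-voom. EXPA7 was higher by 0.28 ± 0.08 and was lost by DESeq2 and without e1e2 ethylene library 2 (0.17), e2e3 ethylene library 1 (0.26) or e2e3 ethylene library 2 (0.30). EXLA2 (0.26 ± 0.08) and EXPA9 (0.14 ± 0.04) were lost without either e1e2 ethylene library or e2e3 ethylene library 2, at 0.19 to 0.27 for EXLA2 and 0.12 to 0.15 for EXPA9. Both were also lost by DESeq2 and with library size alone. EXPA12 was lower by 0.33 ± 0.09, and this was lost without any 1 of the 4 ethylene libraries, at −0.35 to −0.31. EXPA18 stood at 0.25 ± 0.09 and did not pass, though it did in 3 fits that left out an e1e2 library. Of the root hair markers, 2 of 6 were higher in e2e3 in ethylene, and of the endodermis and cortex markers 4 of 5. The shoot markers PORA (−0.001 ± 0.03), PORB (0.05 ± 0.03) and HLS1 (−0.11 ± 0.06) did not pass. The part of these markers was not tested.

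**Figure D5:**
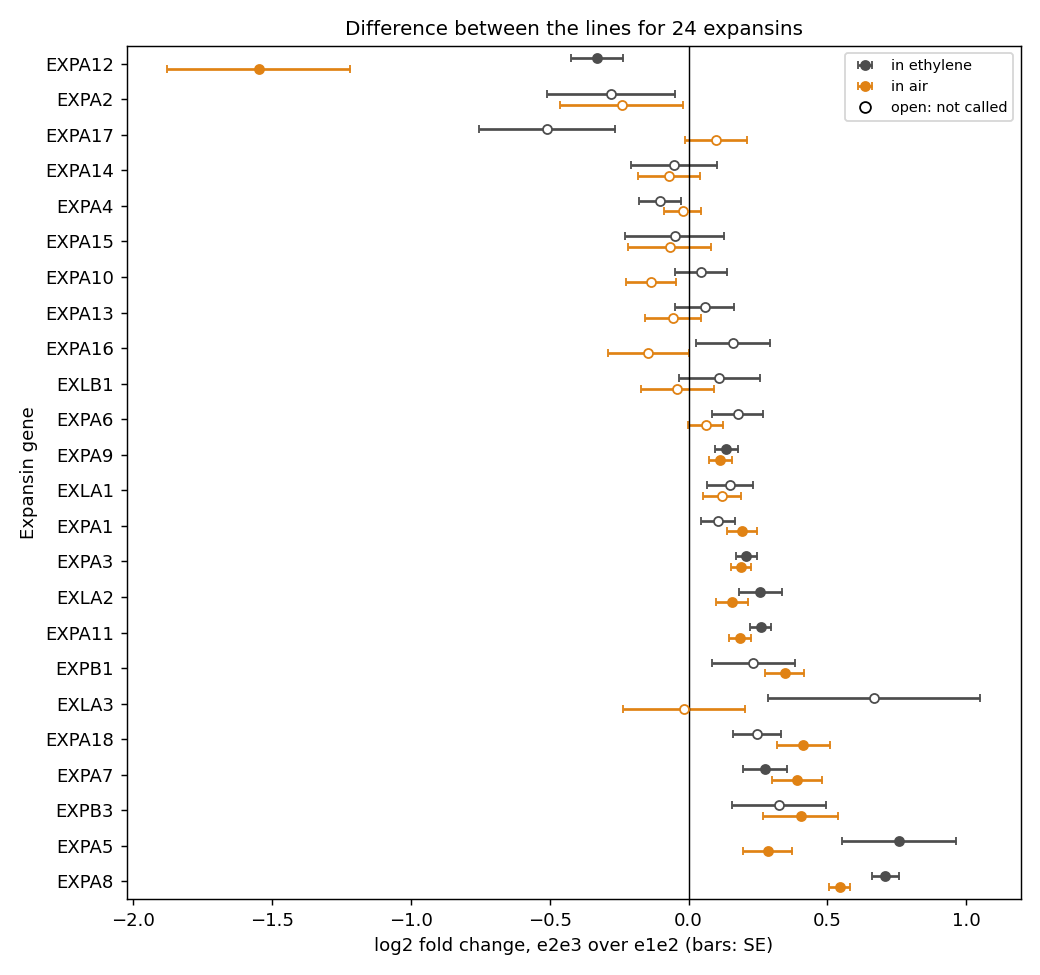
log2 fold change of each tested expansin, e2e3 over e1e2, in ethylene and in air; bars are 1 SE, and open points did not pass the test. EXPA8 lies furthest to the right in air (0.54), and EXPA12 is the one member called lower in e2e3, at −0.33 in ethylene and −1.55 in air.

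Wild-type libraries were not analysed here, but the authors' deposited table of genes called in wild type lists 12 of the 34 expansins among 1242 genes. No wild-type log2 change in the authors' deposited table is under 1 in size, so a gene's absence from it does not show a lack of response. Of all genes in the authors' deposited table, 507 were higher and 735 lower in ethylene in wild type, and of its 12 expansins 2 were higher and 10 lower. By the authors' deposited table the lower ones included EXPA5 (−2.34), EXLB1 (−1.71), EXPA8 (−1.48), EXPA6 (−1.44), EXPA14 (−1.41), EXLA3 (−1.39) and EXPB1 (−1.25). All 10 were called lower in both mutant lines by edgeR here, where 17.3% of all tested genes were lower in both. EXPA17 and EXLA2, which fell by at least 2-fold in both mutant lines, are not among the 12. The calls of EXPA10 in e2e3 and of EXLB1 in both lines did not hold in all alternatives. Nor did those 2 genes reach an adjusted p under 0.05 there in the authors' deposited DESeq2 results for the mutant lines. EXPA12 stood at 3.93 in the authors' deposited table, between its 4.93 in e2e3 and 3.71 in e1e2. EXPA2 stood at 1.84 in the authors' deposited table, outside the 95% interval of its change in either mutant line (−0.70 to 0.20 in e2e3 and −0.65 to 0.23 in e1e2). The table gives no error for its wild-type values, so these differences from wild type were not tested.

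Genes of wall acidification were followed beside the expansins. Of 11 plasma membrane proton pump genes, 9 were tested, and 1 was higher and 1 lower in ethylene in e2e3, and 1 higher and 2 lower in e1e2, with none past 2-fold, beside 20.3% of all genes higher and 23.6% lower in e2e3 and 18.3% and 20.9% in e1e2. AHA2, the pump gene with the highest TPM in every library, read 1870 and 1802 CPM in e2e3 in ethylene against 2283 and 2384 CPM in e2e3 in air, and 1811 and 1804 CPM in e1e2 in ethylene against 2294 and 2105 CPM in e1e2 in air. It fell by 0.35 ± 0.03 in e2e3 and by 0.28 ± 0.03 in e1e2 on the log2 scale. Of the 9 PP2C.D phosphatase genes, all tested, 2 were higher and 4 lower in e2e3, and 2 were higher and 3 lower in e1e2, beside the same shares of all genes. PP2C.D1 rose most, to 133.4 and 129.9 CPM in e2e3 in ethylene against 32.5 and 33.6 CPM in e2e3 in air, and to 136.1 and 131.6 CPM in e1e2 in ethylene against 29.6 and 30.25 CPM in e1e2 in air (log2 1.99 ± 0.06 in e2e3 and 2.16 ± 0.06 in e1e2). PP2C.D7 fell, to 13.6 and 17.75 CPM in e2e3 in ethylene against 34.6 and 37.9 CPM in e2e3 in air, and to 13.1 and 13.95 CPM in e1e2 in ethylene against 32.2 and 36.2 CPM in e1e2 in air. For both phosphatases the treatments separated completely in each line. PP2C.D5 rose by 0.32 ± 0.04 in e2e3 and 0.37 ± 0.05 in e1e2.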

How the data were processed

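Poly(A) RNA of 8 dark-grown seedling libraries was sequenced. The authors deposited raw gene counts (read pairs). Per the file headers these came from featureCounts 2.0.1 on Araport11 genes, with no strand setting and without multi-mapping or multi-gene reads. Build TAIR10 and the tools STAR, Trim Galore, FastQC, DESeq2 and Subread 2.0.1 are listed in the submitters' processing notes, without settings. The authors' deposited comparison tables hold log2 fold changes between ethylene and air and p-values per gene, and per their header a mean signal per gene. Of them, the log2 values of the wild-type table are printed, as the authors'. Those for the mutant lines are cited only for whether an adjusted p was under 0.05. Without strand, reads of a gene and an antisense partner cannot be told apart.

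Tests used edgeR 4.0.16 in R 4.3.3, with TMM scaling, the default expression filter by group (minimum count 10) and 1 robust quasi-likelihood fit of 4 groups over 8 libraries (4 residual degrees of freedom, median prior 218). Benjamini-Hochberg adjustment ran over 20193 genes, and p-values rest mostly on spread shared across genes (common biological coefficient of variation 2.75%). SE is the log2 change over the square root of F, and the 95% interval follows from it. CPM are TMM-scaled. TPM used the deposited counts and lengths. Alternatives were RLE scaling, library size alone, no filter, a non-robust fit, a replicate block, only the 4 libraries compared, DESeq2 1.42.0, limma-voom (limma 3.58.1) and leaving out each library. All expansins with at least 10 counts could be named, and from the pump and phosphatase lists those with the highest mean CPM over the libraries and those past 2-fold. The members, lists and markers were chosen with earlier results of these data known. Gene bounds of all 34 members were the same in the count table and in TAIR10.1 RefSeq, whose genome gave the upstream sequences.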

Additional observations from a re-analysis of the deposited data

Results flagged for a closer look

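EXPA12 is singled out because its response to ethylene differed between the lines by a test of the difference itself. The e2e3 response minus the e1e2 response was 1.218 on the log2 scale (SE 0.35; edgeR, Benjamini-Hochberg adjusted p = 0.0261). It read 24.9 and 25.6 CPM in e2e3 in ethylene against 0.575 and 1.01 CPM in e2e3 in air, and 31.5 and 31.95 CPM in e1e2 in ethylene against 2.30 and 2.52 CPM in e1e2 in air. The value rests on 8 and 18 counts in the e2e3 air libraries, and the call was lost without any 1 of 5 of the 8 libraries (log2 difference 0.94 to 1.74 over the 8 left out in turn).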

How the results depend on the processing

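Of the 120 single-gene results (24 members, 5 comparisons), 64 were called. No alternative reversed a called direction, and 37 alternative values of results that were not called changed sign. RLE scaling and a non-robust fit kept all 64 calls, limma-voom, no filter and the replicate block 62 each, the fits on only the 4 libraries compared 61 of 63, and library size alone 54. DESeq2 gave an adjusted p to 60 of the 64 and kept 48. It gave none to EXPA12 in the difference of responses and in the lines' comparison in ethylene, to EXPA5 in that comparison, or to EXPB3 in the lines' comparison in air. Leaving out 1 library kept 456 of 512 calls and added 5 among 448 values not called in the full fit. In ethylene against air in e2e3, the members higher moved to 2 by DESeq2 and to 5 with library size alone, and those lower to 15 by DESeq2 and to 14 with library size alone, against 4 and 18. The higher count for the difference of responses moved to 0 by limma-voom and to 0 by DESeq2, there because EXPA12 had no adjusted p. For e2e3 against e1e2 the higher count moved to 7 in air with library size alone and to 6 by DESeq2, and in ethylene to 3 by DESeq2, where EXPB3 in air and EXPA5 in ethylene had no adjusted p. The lower count in ethylene moved to 0 by DESeq2, again because EXPA12 had no adjusted p. Over the fits that left out a library, the members higher ranged from 2 to 3 in ethylene in e1e2, from 2 to 4 in ethylene in e2e3, from 0 to 3 for the difference, from 5 to 11 for e2e3 against e1e2 in air and from 3 to 8 in ethylene. Those lower ranged from 17 to 18 in e1e2, from 15 to 18 in e2e3 and from 0 to 1 for e2e3 against e1e2 in ethylene. The family ratio, ethylene over air, was 0.6379 in e2e3 and 0.645 in e1e2 with TMM-scaled CPM per kilobase in place of TPM, and 0.662 to 0.682 in e2e3 and 0.675 to 0.686 in e1e2 without 1 library. The cause of the other changes was not tested. Replicate numbers did not pair the samples (correlation of same-numbered deviations −0.030 to 0.00091 over the 6 pairs of groups), and the replicate block lost the calls of EXPA9 and EXLA2 in air and no other. Depth limits EXPA12 in e2e3 in air and EXLA3, the tested member with the fewest counts (339 over 8 libraries), and no level can be given for the 7 members without a count.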
